A study of Mus musculus with 16 samples.

Results

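Serotonin neuron genes and serotonin receptors were examined as a set of 10 named genes, read through every probe set that the platform annotation assigns to 1 of them alone. A probe set is a group of short probes on the array that reads 1 transcript. This gave 12 probe sets of the 45101 on the array, for 8 of the 10 genes: Tph2, Slc6a4, Htr3a and Htr5b with 1 each, and Htr1a, Htr1b, Htr2c and Htr7 with 2 each. No probe set was assigned to Fev or Htr2a, so neither was analysed here.

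Serotonin is made in the brain by neurons of the raphe nuclei, which lie along the midline of the brain stem and send fibres to nearly every region, the cerebellum included. Tph2 is the rate-limiting enzyme of its synthesis in neurons, Slc6a4 is the plasma membrane transporter that takes it back up, and Fev (Pet-1) is an ETS-family transcription factor of these neurons. The Htr genes encode receptors on target cells or on the serotonin neurons themselves. Htr3a is a subunit of a ligand-gated cation channel, while Htr1a, Htr1b, Htr2c, Htr5b and Htr7 are G protein-coupled receptors. The cell bodies that transcribe Tph2 and Slc6a4 lie in the brain stem, whereas the receptor transcripts lie wherever the target cells are.

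The arrays profiled the cerebellum (cb) and the rest of the brain (Br) of mice. The KO mice were homozygous for a 4-bp deletion made with Cas9 just after the start codon that the short interspersed nuclear element (SINE) contributes to a brain isoform of Ppargc1a, the PGC1α gene, and they were set against WT littermates. Both were on a C57BL/6J background, of either sex and age-matched, with no treatment, and the age is not given in the sources used here. The KO mice came from 1 founder line, the change is present in every cell, and the reference transcript is left in place. Each of the 8 groups, KO cb female, WT cb female, KO cb male, WT cb male, KO Br female, WT Br female, KO Br male and WT Br male, had 2 arrays. The methods call the 2 specimens of a group independent and say that remnants of brain stem were cleaned off by hand before the brain was divided. Specimens were matched by litter, parents or birth date where possible, and the sources do not say if same-numbered cb and Br arrays came from 1 animal.

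The deposited table holds detection levels and no intensities. A level of 2 was taken to mean detected and 1 marginal, and lower levels were taken as undetected. Such calls hold no amount, so 2 groups with equal calls can have unequal RNA, and in whole tissue fewer cells of a type and less RNA per cell cannot be told apart. Each array detected between 25517 and 28155 probe sets. All 13 probe sets of Actb, Gapdh and Ppargc1a were detected on every array, so the calls of Ppargc1a check no genotype label.

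The cerebellum arrays of the females were not alike. Markers of granule cells, the most numerous cerebellar neurons, were detected for 75% of 16 probe sets on the WT cb female replicate 2 and for 93.8% on each of the other 7 cerebellum arrays. Markers of Purkinje cells, the output neurons, stood at 73.9% of 23 probe sets on that array and at 91.3% to 95.7% on the other 7. Some other lists were higher on it. Striatum markers were detected for 73.3% of 15 probe sets on that array and 46.7% to 66.7% on the other 7, markers of thalamus, habenula and midbrain for 70% of 30 against 46.7% to 66.7%, other serotonin receptors for 41.7% of 12 against 8.33% to 25%, and serotonin neuron transcription factors for 72.7% of 11 against 27.3% to 54.5%. Markers of forebrain inhibitory interneurons were lowest on it, at 50% of 14 probe sets against 57.1% to 71.4% on the other 7. Results that change their call without this array are given both ways. The female cerebellum arrays also differed in markers of hindbrain and brain stem, which are described beside Tph2 and Slc6a4.

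To show the genes whose calls varied within the cerebellum, the 250 bases before the RefSeq start site of Tph2 (GRCm38.p6, chr10:115185023-115185272, minus strand) and of Slc6a4 (chr11:76998347-76998596, plus strand) are printed 5′ to 3′. Capitals mark GGAA or its reverse complement TTCC, the core of sites bound by ETS-family factors such as Fev, and TATAAA, the TATA box motif.
Tph2: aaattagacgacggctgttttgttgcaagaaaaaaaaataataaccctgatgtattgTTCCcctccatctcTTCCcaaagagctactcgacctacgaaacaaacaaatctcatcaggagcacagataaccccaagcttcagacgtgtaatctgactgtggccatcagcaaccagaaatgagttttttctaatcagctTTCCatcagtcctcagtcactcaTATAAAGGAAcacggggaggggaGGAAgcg
Slc6a4: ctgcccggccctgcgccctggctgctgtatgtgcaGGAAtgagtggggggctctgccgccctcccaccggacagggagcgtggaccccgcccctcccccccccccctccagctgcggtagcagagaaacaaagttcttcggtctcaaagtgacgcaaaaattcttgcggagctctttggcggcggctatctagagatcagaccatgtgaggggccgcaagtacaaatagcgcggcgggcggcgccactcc
The Tph2 window held 5 matches to GGAA on either strand and 1 TATAAA, which begins 30 bases before the start site and runs directly into a GGAA. The Slc6a4 window held 1 GGAA and no TATAAA or its reverse complement TTTATA. Of 32851 promoter windows of the same length, 93.4% held GGAA or TTCC and 12.4% held TATAAA or TTTATA. The longer letters GGAAGT, or ACTTCC on the other strand, occurred in 19.7% of all windows and in neither of these. The Tph2 window was 43.6% G and C and the Slc6a4 window 64.8%.

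The 12 probe sets fell into 3 kinds. A total of 5 were detected on all 16 arrays: 1438710_at of Htr1a, 1442077_at of Htr1b, both of Htr2c (1435513_at and 1450477_at) and 1435332_at of Htr7. Another 2 were detected on none, 1422288_at of Htr1b and 1422235_at of Htr7. The remaining 5, of Tph2, Slc6a4, Htr1a, Htr3a and Htr5b, were detected on some arrays. Over the whole array 21652 probe sets were detected on every array, 12180 on none and 11269 on some.

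**Figure D1:**
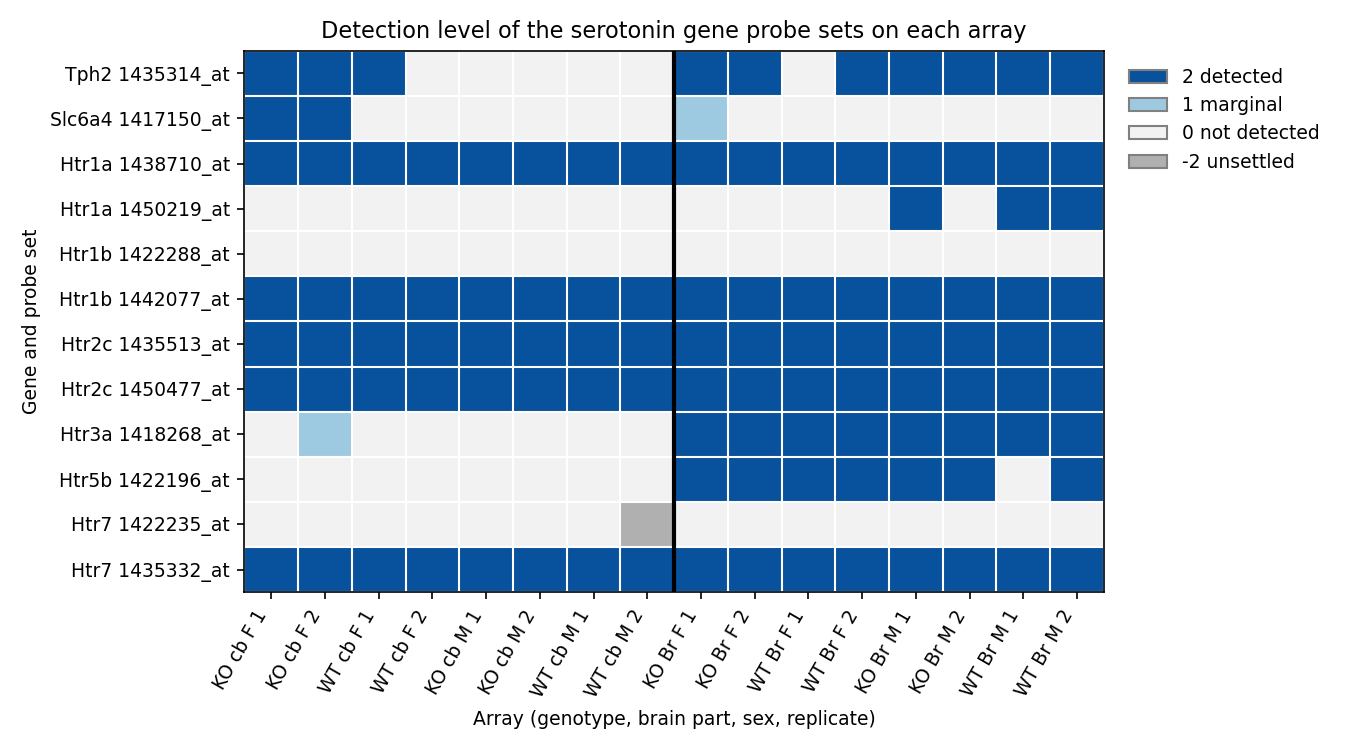
Detection level of each of the 12 probe sets (rows) on each of the 16 arrays (columns, labelled by genotype, brain part, sex as F or M, and replicate), with cerebellum arrays left of the black line and rest-of-brain arrays right of it. Htr3a is dark on all 8 rest-of-brain arrays and on no cerebellum array, and Slc6a4 is dark on the 2 KO cb female arrays alone.

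Tph2 was detected on 3 of 8 cerebellum arrays and 7 of 8 rest-of-brain arrays. In the cerebellum it was at level 2 on both KO cb female arrays and on WT cb female replicate 1, and at level 0 on WT cb female replicate 2, on both KO cb male arrays and on both WT cb male arrays. The brain parts overlapped, and the difference did not pass (Fisher's exact test, p = 0.119, adjusted p = 1 over all probe sets). In the rest of the brain it was at level 2 on both KO Br female, both KO Br male and both WT Br male arrays. There it was at level 2 on WT Br female replicate 2 and at level 0 on WT Br female replicate 1. Set apart by sex, Tph2 was detected on 3 of 4 female cerebellum and 3 of 4 female rest-of-brain arrays, and on 0 of 4 male cerebellum and 4 of 4 male rest-of-brain arrays. The difference between the sexes was not tested.

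Slc6a4 was detected on 2 of the 16 arrays, KO cb female replicates 1 and 2. It was at level 0 on both WT cb female arrays, so these groups of 2 did not overlap, a pattern that 0.743% of all probe sets had. On KO Br female replicate 1 it was marginal, at level 1, and on the other 11 arrays it was at level 0. It was thus detected on 2 of 8 cerebellum arrays and 0 of 8 rest-of-brain arrays (Fisher's exact test, p = 0.467, adjusted p = 1 over all probe sets). Tph2, which is made in the same neurons, was detected on 7 of those 8 rest-of-brain arrays. With either KO cb female array left out, Slc6a4 was detected on 1 of 7 cerebellum arrays.

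Hindbrain and brain stem markers moved with the Tph2 calls in the cerebellum. The list holds 20 genes, of which 17 had probe sets, 32 in all. On the KO cb female arrays 15 and 18 of the 32 were detected (46.9% and 56.2%), on WT cb female replicate 1 16 (50%) and on WT cb female replicate 2 3 (9.38%). On the 4 male cerebellum arrays 4 were detected on each (12.5%). The 3 arrays with the high shares are the 3 cerebellum arrays on which Tph2 was detected. In the rest of the brain the share ran between 12.5% and 25% on KO arrays and between 9.38% and 31.2% on WT arrays. There it did not separate the Tph2 calls. WT Br female replicate 1, with Tph2 at level 0, and replicate 2, with Tph2 at level 2, both stood at 9.38%. Among the 3 cerebellum arrays with high shares, the share did not separate the Slc6a4 calls. WT cb female replicate 1, with Slc6a4 at level 0, stood above KO cb female replicate 1, with Slc6a4 at level 2. The part of these markers' tissue in the result was not tested.

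The markers that carried this were mostly Hox genes, the transcription factors that set position along the hindbrain and spinal cord. Of 21 Hox probe sets on the list, 12 were detected on each KO cb female array, 9 on WT cb female replicate 1 and 1 on WT cb female replicate 2. The male cerebellum arrays detected 1 or 2 and the rest-of-brain arrays between 0 and 5. The calls of Tph2 over the 8 cerebellum arrays were shared by 5 of the 21, 1 probe set each of Hoxa2, Hoxa3, Hoxa4, Hoxa5 and Hoxb3, and by 33 of 45100 other probe sets on the array (0.0732%). Those of Slc6a4 were shared by another 4, of Hoxa5, Hoxb5, Hoxb6 and Hoxc5, and by 35 of 45100 (0.0776%). The Hox genes were not set as a list of their own beforehand, and these shares were not tested. The WT cb female replicate 1, with 9 Hox probe sets and Tph2 but no Slc6a4, lacked the 4 that share the Slc6a4 calls, as that sharing requires. Other Hox probe sets went the opposite way. Hoxa3 1429398_at, Hoxa3 1431392_at and Hoxa4 1420226_x_at were each detected on 1 of 2 WT cb female arrays and 0 of 2 KO cb female arrays. The other markers on the list did not follow 1 pattern. Of 3 probe sets of Dbh, the enzyme that makes noradrenaline, 2 were detected on no array and the third on 3, KO cb female replicate 2, WT cb female replicate 1 and WT Br male replicate 1. The 4 probe sets of Slc6a2, the noradrenaline transporter, were detected on 14, 12, 6 and 2 arrays. Of the probe sets of Slc6a5, the neuronal glycine transporter, 1442177_at was detected on all 8 cerebellum and 5 of 8 rest-of-brain arrays and 1425992_at on none. Phox2a was detected on 4 arrays and Ucn on none.

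**Figure D2:**
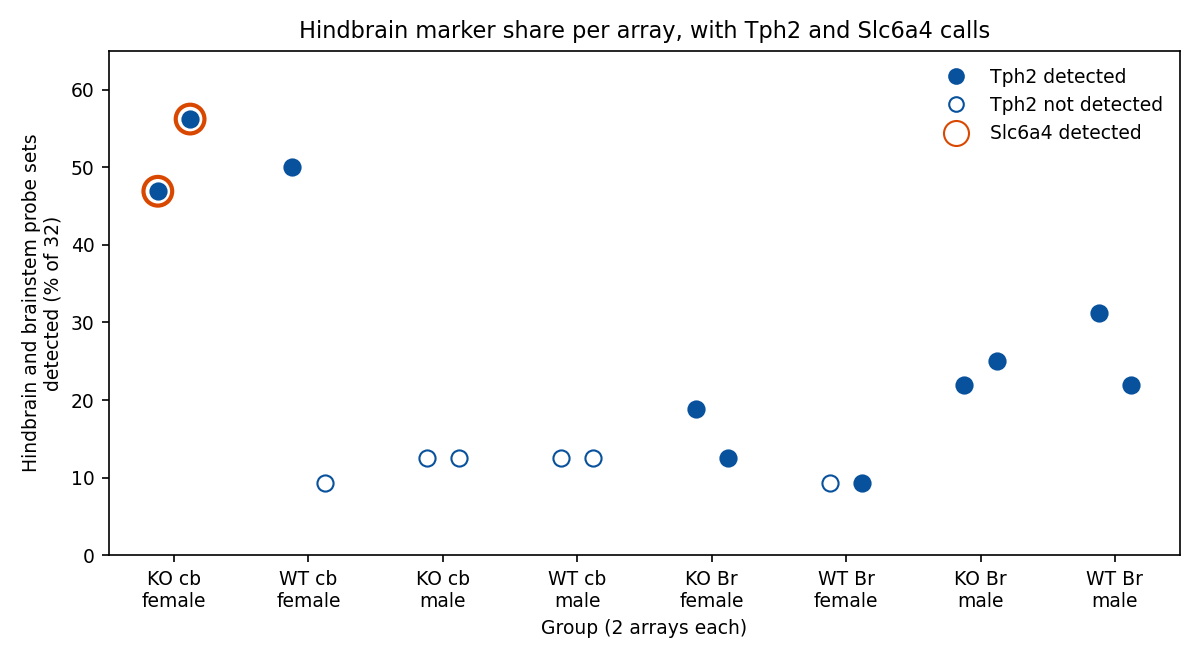
Share of the 32 hindbrain and brain stem probe sets detected (vertical axis, %) on each array, by group (horizontal axis); filled points are arrays on which Tph2 was detected, and orange rings those on which Slc6a4 was. The 3 cerebellum arrays at 46.9% to 56.2% are the 3 with Tph2, and the ringed 2 are the KO cb female arrays.

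Htr3a differed most between the brain parts. It was at level 0 on 7 cerebellum arrays and marginal, at level 1, on KO cb female replicate 2, and at level 2 on all 8 rest-of-brain arrays, so the brain parts did not overlap (Fisher's exact test, p = 0.000155). Over all 45101 probe sets the adjusted p was 0.0501, which misses the threshold, and 0% of probe sets passed there, while 2.76% had an unadjusted p under 0.05, among them Htr3a and Htr5b. With any 1 of the 16 arrays left out Htr3a passed, at an adjusted p of 0.0273 to 0.0487, the lowest without WT cb female replicate 2. In those runs 0.319% to 0.57% of all probe sets passed. The p of Htr3a itself stayed at 0.000155 in them (Fisher's exact test), and its adjusted p fell because more probe sets reached that p. These passes are therefore no check on Htr3a. Limited to the 3873 probe sets whose number of detected arrays allows a p under 0.05, the adjusted p was 0.0043 (Fisher's exact test, Benjamini-Hochberg). In that run 17.1% of probe sets were called, 11.5% as lower in the cerebellum and 5.55% as higher. On the whole array 0.255% of probe sets were detected on all 8 rest-of-brain arrays and no cerebellum array, and 0.0554% on all 8 cerebellum arrays and no rest-of-brain array. Without the WT cb female replicate 2 it was 0 of 7 against 8 of 8.

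Htr5b was at level 0 on all 8 cerebellum arrays and at level 2 on 7 of 8 rest-of-brain arrays, the exception being WT Br male replicate 1, at level 0. The parts overlapped in that array (Fisher's exact test, p = 0.0014, adjusted p = 0.161 over all probe sets and 0.0138 in the limited run). Markers of thalamus, habenula and midbrain were detected for 73.3% of 30 probe sets on that array and for 70% to 76.7% over all rest-of-brain arrays. The part of these markers' tissue in the Htr5b call was not tested. In the mouse, Htr5b encodes a receptor whose human counterpart has been lost.

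Of the 12 probe sets, 3 could enter the limited run, those of Tph2, Htr3a and Htr5b, and a probe set that enters it must be detected on neither few nor nearly all arrays. Both Htr3a and Htr5b passed as lower in the cerebellum, and Tph2 did not (Fisher's exact test, adjusted p = 0.305). The remaining 9 probe sets had no possible p under 0.05 and so say nothing about a difference in level.

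Htr1a, the inhibitory receptor that serotonin neurons carry on their own cell bodies and that is also found in hippocampus and cortex, gave different calls through its 2 probe sets. Through 1438710_at it was at level 2 on all 16 arrays. Through 1450219_at it was at level 0 on all 8 cerebellum and all 4 female rest-of-brain arrays, and at level 2 on KO Br male replicate 1 and both WT Br male arrays, with level 0 on KO Br male replicate 2. That is 0 of 8 against 3 of 8 arrays, which did not pass (Fisher's exact test, p = 0.2, adjusted p = 1 over all probe sets). The probe sets of Htr1b, an inhibitory receptor on axon terminals, and of Htr7, a receptor coupled to cyclic AMP synthesis, disagreed completely, with 1 of each on all 16 arrays and the other on none. For these 3 genes the call thus depends on which probe set is read.

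Htr2c, which is edited in its coding sequence and is abundant in the choroid plexus, the epithelium that makes cerebrospinal fluid, was detected through both probe sets on all 16 arrays. Choroid plexus markers, 16 probe sets, ranged over the cerebellum arrays, at 87.5% and 56.2% in KO cb female, 87.5% and 50% in WT cb female, 50% and 43.8% in KO cb male and 75% and 50% in WT cb male. In the rest of the brain they stood at 75% to 81.2%. As both Htr2c probe sets were called on every array, their calls cannot show if the amount of Htr2c RNA moved with these shares.

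Taking all 12 probe sets, the share detected was 46.9% ± 7.63 on cerebellum arrays and 67.7% ± 5.34 on rest-of-brain arrays (SD, n = 8 each), a difference of -20.8 percentage points. Over all 45101 probe sets the shares were 59.1% ± 1.32 and 60.3% ± 1.05, a difference of -1.19 points. Of the 12, 1 was detected on more cerebellum arrays (Slc6a4) and 4 on fewer, against 9.64% and 12.7% of all probe sets. Among females the difference was -12.5 points and among males -29.2 points, and by gene, counting a gene as detected where any probe set was, it was -26.6 points. As the genes were chosen with results known, this share was not tested.

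**Figure D3:**
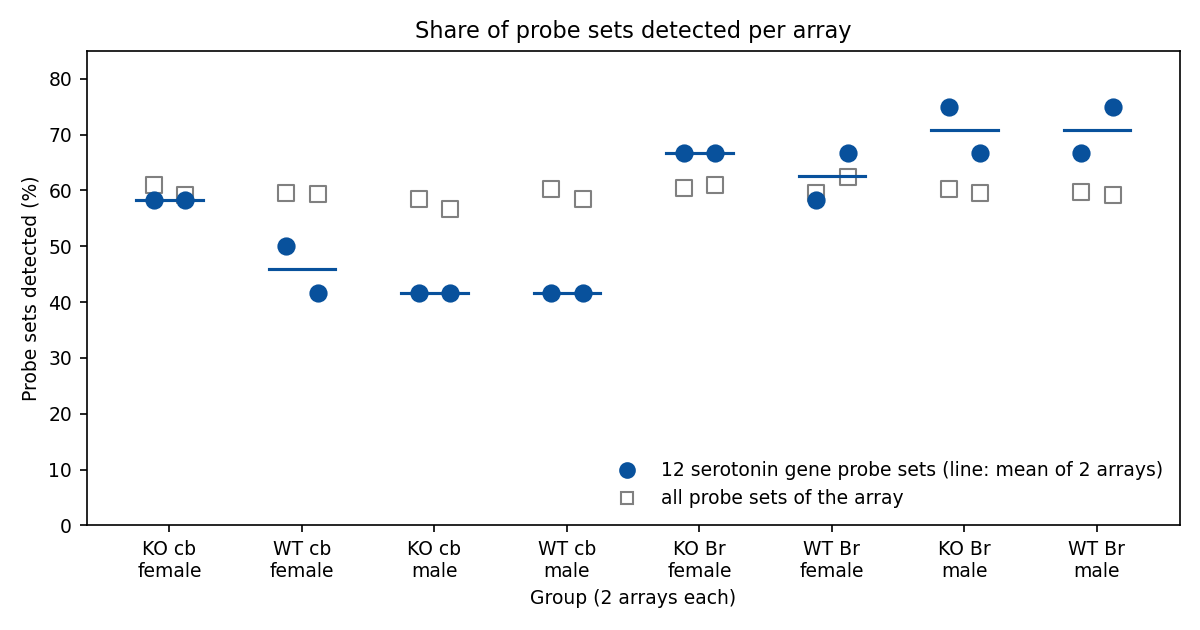
Share of the 12 serotonin gene probe sets detected on each array (filled points, line at the mean of 2 arrays) and of all probe sets on the array (open squares), in % (vertical axis), by group (horizontal axis). The male cerebellum arrays all stand at 41.7%, the KO cb female arrays at 58.3% and the rest-of-brain arrays at 58.3% to 75%.

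Between KO and WT, the calls were set side by side within each sex and brain part, where 2 against 2 arrays allow no exact p under 0.333. In the female cerebellum 1 of the 12 probe sets, that of Slc6a4, had both KO arrays called and both WT arrays not, and 0 had the opposite pattern, against 0.743% and 0.71% of all probe sets. In the male cerebellum 0 and 0 separated in this way, against 0.313% and 0.792%. The rest of the brain gave 0 and 0 in females, against 0.45% and 0.49%, and 0 and 0 in males, against 0.576% and 0.448%. In both sexes together, 8 KO against 8 WT arrays, Tph2 was detected on 6 and 4 (Fisher's exact test, p = 0.608), Slc6a4 on 2 and 0 (p = 0.467), Htr5b on 4 and 3 (p = 1) and Htr3a on 4 and 4 (p = 1), each with an adjusted p of 1 over all probe sets. Of the 12 probe sets 3 were detected on more KO arrays and 1, of Htr1a, on fewer, against 9.11% and 10.4% of all probe sets.

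No probe set on the array passed this test between KO and WT, in the whole table or in the limited run (0% each), and 38 of 45101 (0.0843%) had an unadjusted p under 0.05 (Fisher's exact test), none of them of the 12. In the cerebellum the share of the 12 detected averaged 50% on KO and 43.8% on WT arrays, a difference of 6.25 points, against -0.657 points over all probe sets. That difference was 12.5 points in females, where it rests on Tph2 and Slc6a4, and 0 in males, whose 4 cerebellum arrays had identical calls for all 12. Without WT cb female replicate 2 it was 5.56 points, and without either KO cb female array 3.47 points.

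Of the 7 receptor genes outside the set, all had probe sets, 12 in all, and 6 of these were detected on no array: both of Htr4, and those of Htr2b, Htr3b, 1 of Htr1d and 1 of Htr5a. The second Htr5a probe set, 1443276_at, was detected on all 16. Htr1f, an inhibitory receptor, was detected through 1440422_at on 1 of 8 cerebellum and 8 of 8 rest-of-brain arrays (Fisher's exact test, p = 0.0014, adjusted p = 0.161 over all probe sets and 0.0138 in the limited run). The cerebellum array that detected it was WT cb female replicate 2, and WT cb female replicate 1 was marginal. Without replicate 2 it was 0 of 7 against 8 of 8, and Htr1f then passed over all probe sets (Fisher's exact test, adjusted p = 0.0273), as did 0.57% of them. Leaving out the only cerebellum array that detected Htr1f fixes that separation, so the pass is no check on it. The Htr1d probe sets that varied did not pass, with 1440166_x_at on 1 cerebellum and 5 rest-of-brain arrays and 1440741_at on 4 and 6. Htr6, a receptor abundant in the striatum, was detected on 3 of 8 and 3 of 8. The limited run could take in only the Htr1d probe sets that varied, Htr1f 1440422_at and Htr6. There 1 passed as lower in the cerebellum, 0 as higher, and 0 between KO and WT. Of all entering probe sets 11.5%, 5.55% and 0% did so.

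Enzymes and transporters that serotonin neurons share with other cells were detected broadly. Of 14 probe sets for 9 genes, 9 were on all 16 arrays, among them those of Qdpr and Spr, which keep or make the cofactor of Tph2, and of Maoa and Maob, which break serotonin down. Ddc, which performs the last step of serotonin synthesis, was on all 16 through 1426215_at and on none through 1430591_at. Slc18a2, the vesicle transporter of monoamines, was detected on 7 of 8 cerebellum and 8 of 8 rest-of-brain arrays. The single probe set of Tph1, the enzyme of peripheral tissues and the pineal gland, was detected on none. No probe set of this list passed between the brain parts or between KO and WT, and only Pts 1458402_at could enter the limited run. Gch1, the first enzyme of cofactor synthesis, was detected through 1420499_at on 4 KO arrays and 0 WT arrays (Fisher's exact test, p = 0.0769), with its other probe set on all 16. Pts, the next enzyme of that route, was on all 16 through 1450660_at and on 2 KO and 5 WT arrays through 1458402_at (Fisher's exact test, p = 0.315).

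Of the transcription factors that specify serotonin neurons, both probe sets of Lmx1b, which these neurons need, were detected on no array, also where Tph2 was. Nkx2-2 and En2 were detected on all 16 arrays, and Gata2 on all 16 through 1450333_a_at. Gata3 and the other Gata2 probe set were detected on 1 array each, WT cb female replicate 2, which had no Tph2. Insm1, a zinc finger factor of developing neurons, was on 1 of 8 cerebellum and 8 of 8 rest-of-brain arrays through 1421399_at (Fisher's exact test, p = 0.0014, adjusted p = 0.161 over all probe sets and 0.0138 in the limited run), and again the 1 was WT cb female replicate 2. Without that array it was 0 of 7 against 8 of 8 and passed over all probe sets (Fisher's exact test, adjusted p = 0.0273), as did 0.57% of them. Leaving out the only cerebellum array that detected 1421399_at fixes that separation, so the pass is no check on it. Through 1455865_at it was on 6 and 8. Of the 11 probe sets of the 8 genes, only those of Foxa2 and En1 and Insm1 1421399_at could enter the limited run. There 1 passed as lower in the cerebellum, 0 as higher and 0 between KO and WT. Of all entering probe sets 11.5%, 5.55% and 0% did so. Foxa2, a floor plate factor, was on 3 of 8 cerebellum and 5 of 8 rest-of-brain arrays. En1, a midbrain and hindbrain factor, did not pass, on 6 of 8 cerebellum and 3 of 8 rest-of-brain arrays (Fisher's exact test, p = 0.315).

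**Figure D4:**
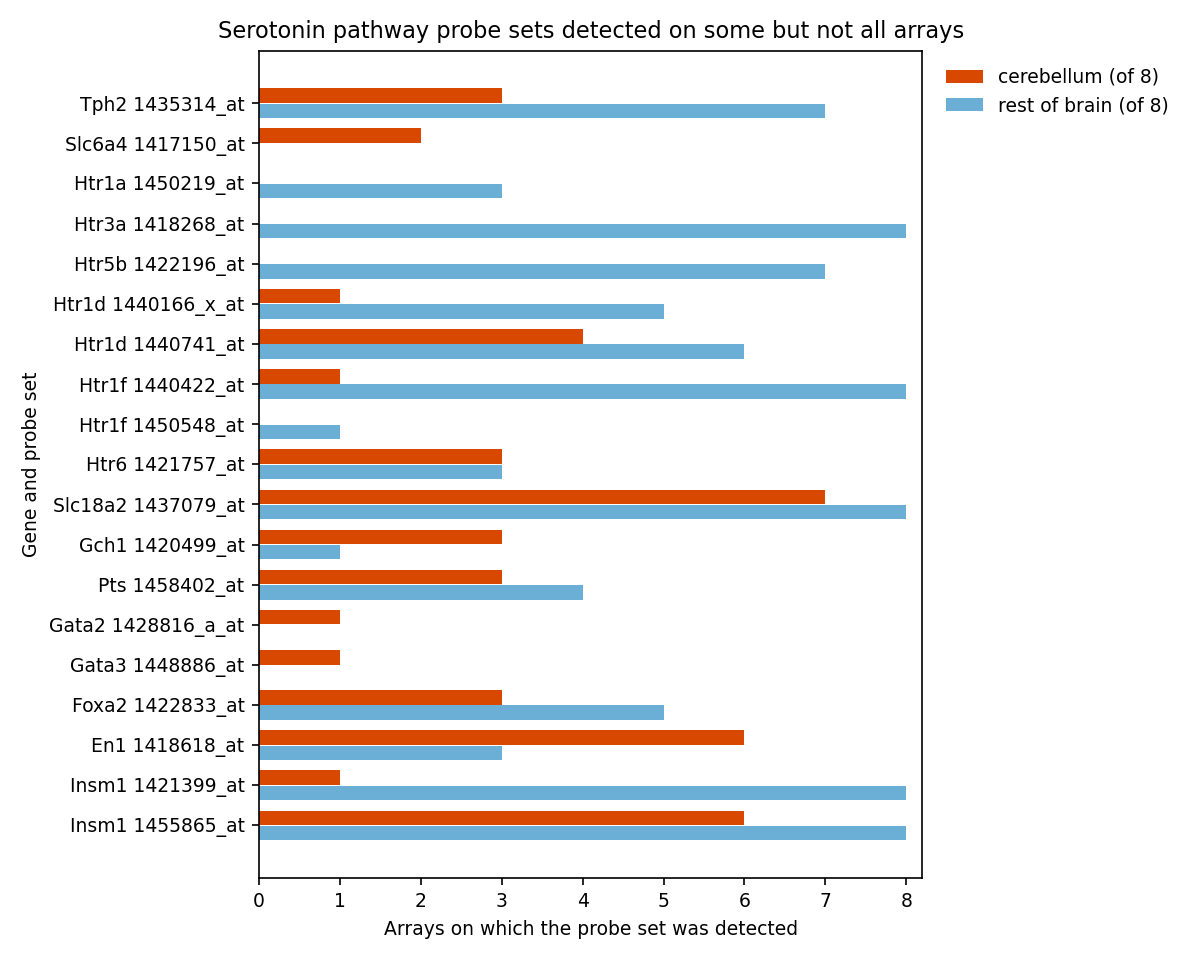
Number of arrays (horizontal axis, of 8 per brain part) on which each serotonin pathway probe set detected on some but not all arrays (vertical axis) was called, cerebellum above rest of the brain. Htr3a, Htr5b, Htr1f and 1 probe set of Insm1 show the widest gaps, at 0 against 8, 0 against 7, 1 against 8 and 1 against 8.

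The probe sets whose calls were most like those of each variable gene were then listed by the number of equal calls over the 16 arrays. For Htr3a, 96 probe sets of other named genes were equal on all 16, the first by probe set name being those of Junb, Tbr1 and Crym. From the fixed list of forebrain interneuron markers, 14 probe sets, those of Dlx1 and Dlx5 and 1 of Lhx6 were among them, and from the 14 of cortex and hippocampus those of Tbr1 and 1 of Emx1. No other list had any. Other interneuron markers had other calls, with Sst, Npy and Cck on all 16 arrays and 1421336_at of Prox1 on 7 of 8 cerebellum and 3 of 8 rest-of-brain arrays. Htr5b had 4 with equal calls on all 16, of Rasd2, Met, Alkbh8 and Vipr1. Htr1a 1450219_at had 1, of Gpr39, and 21 equal on 15, the first of which were Exo1 and Mettl27. Tph2 had none equal on all 16 and 7 equal on 15, led by Aqp1, Cep70 and Plscr3. Slc6a4, detected on too few arrays for the rule, shared its 16 calls with 16 other probe sets, which include those of Hoxa5, Hoxb5 and Hoxc5, named after their calls were seen.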

How the data were processed

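Gene expression was measured with Affymetrix arrays in 16 specimens, 2 for each combination of genotype, brain part and sex, and groups were taken from the sample titles. The authors used the MAS5 algorithm, as both the methods and the submitters' processing notes say, while their results name RMA. The methods name a human array, but mouse probe set names are in the table. The deposited values are not intensities but a score with 5 distinct values, which the authors do not explain. Read as 4-byte numbers these have a leading byte of 2 (59.7% of values), 1 (1.51%), 0 (37.3%), -1 (0.267%) or -2 (1.19%). Level 2 was read as detected, level 1 as marginal and the others as not detected. Probe sets were named through the platform annotation where it gives 1 symbol (34958), and not where it gives several (932) or none (9211).

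Each of the 45101 probe sets was tested with Fisher's exact test, two-sided, on detected arrays, with Benjamini-Hochberg adjustment over all of them and a threshold of 0.05. A second run was limited to the 3873 probe sets detected on 5 to 11 arrays, the only ones for which 8 against 8 arrays can give p under 0.05. Neither the ANOVA of the methods nor a fold change can be computed from calls. The named genes were all members, the other serotonin pathway genes on fixed lists and, for each member probe set detected on 3 to 13 arrays, the 3 probe sets of other genes with the most equal calls. The members and lists were chosen with earlier results of these data known. The test was checked on simulated calls. Those with planted differences held more fully separated probe sets than the table does. They check the code and do not show what the test can find in these data. The number of arrays limits the precision. Tests ran in scipy 1.17.1 with pandas 2.3.3 under Python 3.11.15. Promoter windows are from RefSeq (GRCm38.p6), with 1 window for each of 8 members and none for Htr3a and Htr5b.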

Additional observations from a re-analysis of the deposited data

Results flagged for a closer look

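Among 50 sets of 8 arrays examined within a brain part, 10 had an array far from the other 7 by Dixon's test, where chance gives about 1 in 20, and since a level has few steps a single differing call is enough. In the cerebellum, WT cb female replicate 2 lay apart with 75% of granule cell and 73.9% of Purkinje cell probe sets detected. Htr3a was at level 1 on KO cb female replicate 2 and 0 on the other 7 cerebellum arrays. Htr7 (1422235_at) was at level -2, whose meaning is not settled, on WT cb male replicate 2 and at 0 on the others. In the rest of the brain, Tph2 was at level 0 on WT Br female replicate 1, Htr5b at level 0 on WT Br male replicate 1 and Slc6a4 at level 1 on KO Br female replicate 1. The other serotonin receptors stood at 25% on WT Br male replicate 1. KO Br female replicate 1 had 91.3% of Purkinje cell probe sets, against at most 78.3% on the other rest-of-brain arrays. Its granule cell share, 81.2% against 50% to 75% on the others, was also the highest but was not flagged. WT Br female replicate 2 had 85.7% of cortex and hippocampus probe sets, against 78.6% on each of the other rest-of-brain arrays.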

How the results depend on the processing

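The count of serotonin gene probe sets called between cb and Br over the whole table was 0. In the limited run it was 2 of the 3 that could enter, where 17.1% of all entering probe sets were called. With genes in place of probe sets it was 1 (0.335% of all genes passed), and without _x_at and _s_at probe sets 1 (0.323% of all). With any 1 array left out it was 1 to 2 (0.319% to 0.57% of all, highest without WT cb female replicate 2). Without WT Br male replicate 1 both Htr3a and Htr5b were called. That was the only rest-of-brain array without Htr5b, so leaving it out fixes the separation of Htr5b and is no check on it. Htr3a kept the same unadjusted p in all runs with 1 array left out, so its passes there are no check on it. The count between cb and Br was 0 with marginal calls counted as detected, with negative levels left out and in either sex or genotype alone. Arrays of 1 sex or genotype are too few for any probe set to pass here, so those counts were fixed beforehand. The count between KO and WT was 0 in every alternative run, and in 1 sex alone no other count was possible. No probe set was detected on all 8 arrays of 1 genotype and on none of the other. The share difference of cb and Br, -20.8 points, was -12.5 in females, -29.2 in males, -26.6 by gene and -22.5 to -19.8 with 1 array left out, and that of KO and WT in cb, 6.25 points, was 12.5 in females, 0 in males and 3.47 to 9.03 with 1 array left out, lowest without either KO cb female array. Single probe sets gave 134 alternative values, of which 24 moved by more than the replicate spread and 0 changed sign against a call. Most of the 24 were of Slc6a4, 13 between cb and Br and 6 between KO and WT in cb. Its replicates always had equal calls, so any change in it counted as moved. Same-numbered arrays did not deviate together (correlations of -0.0181 to 0.0647 over 11269 probe sets), so the numbers were not used as pairs, although a shared animal or litter was not settled by this. With the replicate block, an exact sign test over 8 pairs, 0 probe sets were called in either comparison. That test cannot give a p below 0.00781, which 7048 probe sets would have to reach for any to pass, so its 0 says nothing about the calls. The share differences with the replicate block were -20.8 and 6.25 points.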
